A study of Mus musculus with 4 samples.

Results

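Adventitial fibroblasts of the mouse lung were described in 4 single-cell RNA libraries, from lungs given LPS with or without X-rays and lungs given PBS with or without X-rays. A barcode was taken as an adventitial fibroblast when it held at least 2 UMIs summed over Pi16, Scara5 and Serpinf1, at least 2 UMIs summed over Col1a1, Col1a2, Col3a1 and Dcn, and no UMI of Ptprc, Pecam1, Cdh5 or Ager. A UMI is the tag that marks 1 captured RNA molecule. The files hold 34440 barcodes that reached 500 UMIs and 200 genes and stayed within 10% mitochondrial UMIs, and 218 of these met the rule, with 56 in the LPS+RT library, 19 in LPS, 57 in PBS+RT and 86 in PBS. The cells were thus chosen by the UMIs of these genes, and the levels of these genes are given as a description with no test.

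Adventitial fibroblasts lie in the connective tissue cuffs around large vessels and airways, apart from the alveolar fibroblasts of the gas-exchange walls. They express the peptidase inhibitor Pi16, the ferritin receptor Scara5, the secreted serpin Serpinf1 (PEDF) and the collagen-binding proteoglycan Dcn, and are known as a source of matrix, complement, chemokines and the alarmin Il33 for immune cells in the cuffs. Lipopolysaccharide (LPS), a cell wall component of Gram-negative bacteria, acts through the receptor Tlr4 and induces NF-kB targets; interferon-gamma from lymphoid cells induces a set of GTPases. X-rays break DNA and induce targets of p53, among them the cell cycle inhibitor Cdkn1a.

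The mice were wild-type C57BL/6 males of 6 to 7 weeks, and each library was taken 48 h after an injection into the trachea. LPS mice were given 200 µg LPS from E. coli O55:B5 and PBS mice 100 µL of saline; in the LPS+RT and PBS+RT groups (RT, low-dose radiotherapy) the chest was irradiated with 1 Gy of X-rays on the following day, 24 h before collection. The lungs were dissociated and mononuclear cells were enriched on a density gradient, a step that limits how many stromal cells remain, and the cells were run on 10x Genomics 3′ chemistry with a target of 10000 cells. There was 1 library for each group, the number of mice behind a library is not given, and all 4 share one batch label.

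With 1 library per group, no difference below could be tested against the spread between animals. Where an interval is given, it is at 95% and covers counting error alone. The UMIs are taken as independent, whereas the UMIs of a few cells set many values. Levels are UMIs per 1000000 (CPM) of the summed UMIs of the adventitial fibroblasts in a library, of which there were 861093 in LPS+RT, 318947 in LPS, 1105402 in PBS+RT and 1194856 in PBS. A gene without a UMI in a library was set to 3 UMIs for a fold, which is 3.48, 9.41, 2.71 and 2.51 CPM in these libraries. The median depth of an adventitial fibroblast was 15571 UMIs in LPS+RT, 18208 in LPS, 17945 in PBS+RT and 13436 in PBS, against 4460, 5641, 8674 and 4375 UMIs over all barcodes kept. Barcodes that libraries share were not counted, since the barcode sequences were not used here, and no doublet caller was run.

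Most of the cells were well inside the rule. Of the 218 cells, 129 held UMIs of all of Pi16, Scara5 and Serpinf1, and 30 met the rule by Serpinf1 alone. The median sum of the 3 genes was 36 UMIs in LPS+RT, 15 in LPS, 33 in PBS+RT and 25 in PBS. Just inside the threshold, at exactly 2 UMIs, were 9, 2, 3 and 7 cells, and just outside it, at 1 UMI, were 24, 12, 11 and 20 barcodes of the collagen-positive gate, in the same order. Another 49, 28, 53 and 97 barcodes met both positive parts of the rule and were left out for a UMI of Ptprc, Pecam1, Cdh5 or Ager, 19, 13, 26 and 48 of them for a single UMI. These barcodes were deeper than the cells kept, with medians of 18635, 25742.5, 25690 and 17680 UMIs.

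The levels of the rule genes follow from the choice of the cells and are given only as a description. Pi16 was at 1275 CPM in LPS+RT, 731 in LPS, 1134 in PBS+RT and 1812 in PBS, with a UMI in 38 of 56, 15 of 19, 48 of 57 and 73 of 86 cells. For comparison, 7 of 310, 4 of 165, 1 of 194 and 5 of 278 alveolar fibroblasts held a Pi16 UMI, at median depths of 2934.5, 3077, 8444 and 3487 UMIs. Alveolar fibroblasts were the barcodes of the same collagen gate with at least 2 UMIs of Npnt, Tcf21 and Inmt and fewer than 2 of the rule genes, which by itself keeps Pi16 low in them. Of the adventitial fibroblasts, 51 of 56, 12 of 19, 54 of 57 and 81 of 86 also reached 2 UMIs of Npnt, Tcf21 and Inmt. Only the rule genes split these cells from the alveolar class. Scara5 was at 468, 204, 524 and 516 CPM, Serpinf1 at 910, 386, 738 and 1098 CPM, and Dcn at 11288, 7694, 9657 and 10838 CPM in LPS+RT, LPS, PBS+RT and PBS. All 4 were lowest in LPS, but without cells carrying RNA of another class (below) Serpinf1 and Dcn were higher in LPS than in PBS, and Pi16 was lower in LPS+RT than in LPS. Dcn had no UMI in 5, 1, 0 and 8 cells. In 28 cells, 11 of LPS+RT, 1 of LPS, 5 of PBS+RT and 11 of PBS, Npnt and Tcf21 together had more UMIs than the 3 rule genes, and 18 of these 28 held at most 10 UMIs of Dcn. The positions in GRCm38 are chr17:29317680-29330593 (+) for Pi16, chr14:65666403-65764826 (+) for Scara5, chr11:75409769-75422701 (-) for Serpinf1 and chr10:97479609-97518143 (+) for Dcn.

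Beyond the rule genes, 24 further genes known from adventitial fibroblasts were compared with the alveolar fibroblasts of the same library, and 17 of them were at least 2-fold higher in all 4 libraries. Clec3b, a plasminogen-binding protein, was at 2421 CPM in adventitial against 350 in alveolar fibroblasts of LPS+RT, 1336 against 224 in LPS, 2169 against 236 in PBS+RT and 3199 against 417 in PBS. The scavenging chemokine receptor Ackr3 was 93.5-fold higher in LPS+RT, 86.0-fold in LPS, 122-fold in PBS+RT and 67.7-fold in PBS. The eosinophil chemokine Ccl11 was higher by 151-fold, 131-fold, 24.9-fold and 476-fold in the same order, and the endosialin gene Cd248 by 106-fold, 18.3-fold, 32.7-fold and 74.4-fold. The alarmin Il33 was higher by 202-fold, 60.1-fold, 17.9-fold and 49.6-fold. Large folds of this kind divide by alveolar levels that rest on few UMIs, as for Ackr3 in each library, and their size is uncertain. Dpp4, which marks universal fibroblasts in other tissues, could not be placed, with a UMI in 2 cells of LPS+RT, 0 of LPS, 0 of PBS+RT and 4 of PBS.

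Of 20 genes shared by fibroblasts, 5 were at least 2-fold higher in adventitial than in alveolar fibroblasts of all 4 libraries and 1 was lower. The small proteoglycan Lum was higher by 30.2-fold in LPS+RT, 110-fold in LPS, 25.7-fold in PBS+RT and 16.6-fold in PBS, and the matrix glycoprotein Fbln2 by 15.4-fold, 7.35-fold, 25.6-fold and 43.8-fold. The extracellular peroxidase Gpx3 was the one that was lower, at 0.28, 0.22, 0.38 and 0.27 of its alveolar level. Of 16 alveolar fibroblast genes, 10 were at least 2-fold lower. The integrin subunit Itga8, which chose neither class, was at 0.13, 0.13, 0.10 and 0.12 of the alveolar level. The alveolar cells were chosen by Npnt, Tcf21 and Inmt, so the ratios of Npnt, an integrin ligand, at 0.10, 0.07, 0.05 and 0.08 follow in part from that choice. The BMP family member Gdf10 was the exception and was higher. The methyltransferase Inmt had a UMI in 53 of 56, 10 of 19, 55 of 57 and 80 of 86 adventitial cells. The summed level of the adventitial list was 13964 CPM in LPS+RT, 12729 in LPS, 12223 in PBS+RT and 15978 in PBS, against 3133, 3258, 2812 and 3217 CPM in alveolar fibroblasts and 1867, 1234, 2731 and 2518 CPM in the rest of each library.

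**Figure D1:**
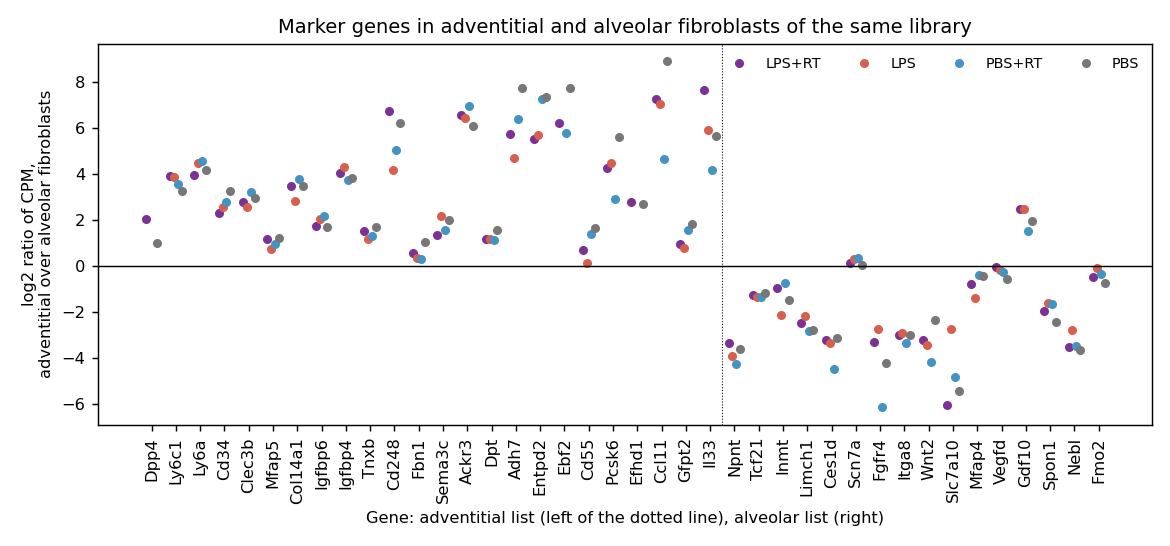
Log2 ratio of CPM in adventitial over alveolar fibroblasts of the same library, 1 point per gene and library, for 24 adventitial and 16 alveolar fibroblast genes. Of the 24 adventitial genes, 17 lie at least 2-fold above the alveolar level in all 4 libraries, and 10 of the 16 alveolar genes lie at least 2-fold below it.

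RNA of other cell classes was present in the adventitial barcodes. The summed level of 8 neutrophil genes was 37.2 CPM in LPS+RT, 188 in LPS, 21.7 in PBS+RT and 28.5 in PBS, against 2310, 9100, 2119 and 1210 CPM in the rest of the library; S100a8, a neutrophil alarmin that fibroblasts should lack, had 8, 10, 4 and 5 UMIs in 8, 9, 4 and 5 cells. Endothelial genes summed to 225, 125, 143 and 309 CPM and airway genes to 225, 47.0, 93.2 and 257 CPM. Single PBS cells carried 6879 of the hemoglobin UMIs and 950 of the MHC class II UMIs. At least 5 UMIs of peribronchial genes (fibroblasts around the airways) were found in 30, 6, 35 and 52 cells. Leaving out each cell with at least 5 UMIs over any one list of another cell class kept 10 cells of LPS+RT, 7 of LPS, 17 of PBS+RT and 13 of PBS. Many were left out by the peribronchial list, which is made of fibroblast genes. It was at 490, 232, 788 and 634 CPM in adventitial cells against 481, 519, 291 and 319 CPM in the rest of the library. A fixed count of 5 UMIs is also reached more readily in deep cells. The setting is thus not only a removal of foreign RNA. Results whose direction turned in this small set are named below.

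Adventitial fibroblasts made up a smaller share of the LPS library than of the PBS library. The share of barcodes was 0.565% (0.427 to 0.733) in LPS+RT, 0.208% (0.125 to 0.324) in LPS, 0.898% (0.681 to 1.16) in PBS+RT and 0.951% (0.762 to 1.17) in PBS. The LPS share was 0.219 (0.126 to 0.362) of the PBS share. The LPS library held 3560 neutrophil barcodes against 83 in PBS, which enlarge the denominator. Within the collagen-positive gate, which leaves them out, the share was 7.22% (4.41 to 11.1) in LPS against 18.6% (15.2 to 22.5) in PBS, a ratio of 0.388 (0.223 to 0.643). With cells carrying RNA of another class left out, the LPS to PBS ratio over all barcodes was 0.533, with an interval of 0.180 to 1.44 that includes 1.

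The pairs that differ by irradiation were compared next. The PBS+RT share was 0.944 (0.663 to 1.33) of the PBS share, and the LPS+RT share was 2.72 (1.59 to 4.84) times the LPS share. Without cells carrying RNA of another class these ratios were 1.86 (0.852 to 4.17) in the PBS pair and 1.32 (0.452 to 4.08) in the LPS pair, and both intervals include 1. In the collagen-positive gate adventitial fibroblasts were 12.4% (9.47 to 15.8) in LPS+RT, and the ratio to LPS was 1.71 (1.00 to 3.05). The LPS+RT share was 0.629 (0.427 to 0.925) of the PBS+RT share, in which they were 18.75% (14.5 to 23.6) of the gate. When every barcode was thinned to 2000 UMIs before the rule, which removes the depth gap between libraries, 56 of 6866, 20 of 7265, 62 of 5305 and 115 of 6221 barcodes met it in LPS+RT, LPS, PBS+RT and PBS, and PBS+RT then had 0.632 (0.457 to 0.868) of the PBS share. Barcodes under 2000 UMIs were left out of this setting, 3051, 1874, 1040 and 2818 in the same order. Thinning also removes UMIs of the excluding genes, and 115 PBS barcodes met the rule in place of 86. The ratio thus describes another set of barcodes. Shares of barcodes depend on dissociation and on the enrichment, and the part of either in these differences was not tested.

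**Figure D2:**
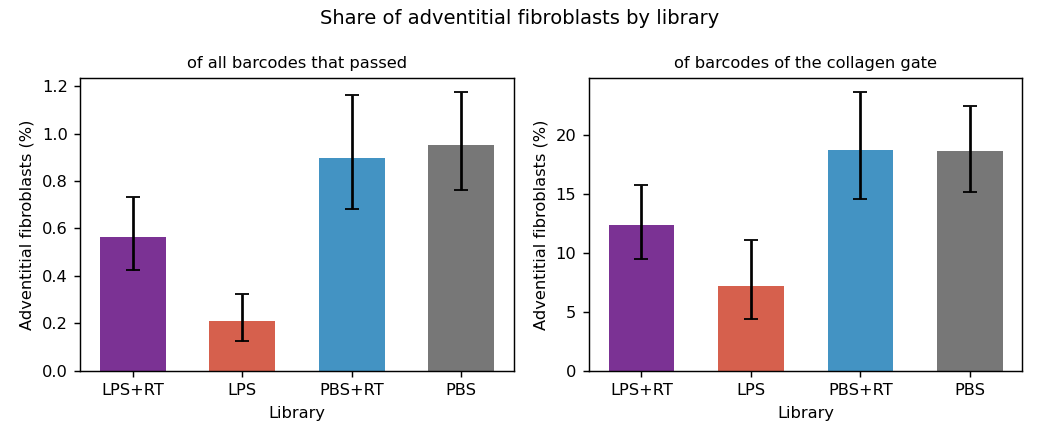
Adventitial fibroblasts as a percentage of all barcodes kept and of collagen-positive barcodes in each library, with exact 95% counting intervals as bars. The LPS library has the lowest share on both scales, 0.208% of barcodes and 7.22% of the collagen gate.

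In LPS against PBS, acute-phase, inflammatory and interferon-gamma genes were higher and genes of adventitial identity were mostly lower. The neutrophil chemoattractant and acute-phase gene Saa3 was at 3063 CPM in LPS against 32.6 CPM in PBS, and the iron-binding lipocalin Lcn2 at 630 against 2.51 CPM. The interferon-inducible GTPase Iigp1 was at 925 against 31.0 CPM and the guanylate-binding protein Gbp2 at 571 against 41.0 CPM. The insulin-like growth factor binding protein Igfbp5 was at 179 against 1002 CPM and Inmt at 354 against 1579 CPM. Of 3275 genes with a mean of at least 50 CPM over both libraries (measured genes), 8.03% were higher and 4.03% lower in LPS by 2-fold or more, with a median log2 ratio of 0.07.

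LPS was at least 2-fold above PBS in all 6 measured acute-phase genes, with a median log2 ratio of 2.41 against 1.30 in alveolar fibroblasts. Here and below, each list median is over the genes measured in that cell class, so the 2 medians of a list can cover different genes. Saa3 had 488 UMIs in 14 cells of LPS+RT, 977 in 11 cells of LPS, 214 in 1 cell of PBS+RT and 39 in 5 cells of PBS. The LPS level was 93.8-fold (68.2 to 133) the PBS level, and 619 of the 977 UMIs came from 1 cell; without the richest cell of each library the levels were 1122 CPM in LPS against 11.7 CPM in PBS. That cell held 32734 CPM of Saa3, no UMI of Pi16 and 106 CPM of Dcn, and the adventitial list summed to 3279 CPM in it. The rest of the LPS library carried Saa3 at 2178 CPM, against 1.8 CPM in the rest of the PBS library, and the part of free RNA in the counts of single cells was not tested. Lcn2 was spread more evenly, in 16 of 19 cells of LPS against 1 of 86 in PBS (251-fold, 84.7 to 1227), and was at 1332 and 43 CPM in the rest of these libraries. The metalloreductase Steap4 was 6.11-fold higher, the ferroxidase Cp 2.96-fold and the protease inhibitor Serpina3n 2.99-fold (2.65 to 3.37), at 1530 CPM in all 19 cells of LPS against 512 CPM in 69 of 86 cells of PBS. Mt2, a metallothionein, was at 1248 against 276 CPM, a log2 difference 2.04 (1.76 to 2.32) above that of alveolar fibroblasts.

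Of 11 measured inflammatory signals, 8 were higher by 2-fold or more in LPS, and several of them rested on few cells. The B cell chemokine Cxcl13 was at 1699 CPM in LPS, from 542 UMIs in 4 cells of which 1 held 449, against 1 UMI in PBS and 0 in LPS+RT and PBS+RT; the ratio to PBS was 2030 with a lower bound of 363. The monocyte chemokine Ccl2 was at 445 CPM in 5 cells of LPS against 66.1 CPM in 4 cells of PBS, and at 94.1 against 30.1 CPM without the richest cell of each. Cxcl2, a neutrophil chemokine, had a UMI in 15 of 19 cells in LPS (157 CPM) and 3 of 86 in PBS (2.51 CPM), a ratio of 62.4 (20.2 to 313). The rest of these libraries carried it at 7233 and 225 CPM, above the adventitial level in both, and the part of free RNA was not tested. Cxcl1 and Il6 were already expressed without LPS: Cxcl1 was at 1405 CPM in LPS against 802 in PBS (1.75-fold), and Il6 at 470 against 285 CPM (1.65-fold). For both genes the adventitial log2 difference was smaller than the alveolar one, by -0.83, and Il6 was lower in LPS when UMIs of at least 2 of the 3 rule genes were asked for. The median cell held 3460 CPM of the whole inflammatory list in LPS against 447 CPM in PBS. Without the 3 cells richest in the list, 6 genes were at least 2-fold higher and the median log2 ratio was 1.24 in place of 2.75.

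Of 10 measured interferon-gamma genes, 9 were higher by 2-fold or more in LPS, with a median log2 ratio of 3.81 against 2.10 in alveolar fibroblasts. Gbp2 was in 12 of 19 cells of LPS against 37 of 86 of PBS, and its ratio was 13.9 (10.1 to 19.5). Iigp1 was in 10 against 24 cells with a ratio of 29.9 (21.2 to 43.3). For these 2 genes the log2 difference exceeded that of alveolar fibroblasts by 1.62 (0.90 to 2.35) and 1.90 (1.36 to 2.44). The list was concentrated in few cells: 3 of the 19 LPS cells held 82.8% of its 1309 UMIs, and without the 3 richest cells of each library the list summed to 953 CPM in LPS against 373 CPM in PBS, with 9 genes still at least 2-fold higher and a median log2 ratio of 2.19. The median cell held 866 CPM of the list in LPS against 305 CPM in PBS, and 9 of 19 against 6 of 86 cells reached 1000 CPM. The cells richest in this list were not those richest in Saa3, which was at 1300, 56.1 and 0 CPM in the 3 cells with 16134, 15137 and 7884 CPM of interferon-gamma genes. Across cells the rank correlation of Saa3 with Gbp2 was 0.10 over the 19 LPS cells, and that of Saa3 with Lcn2 was 0.57; the cells share a library and differ in depth.

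**Figure D3:**
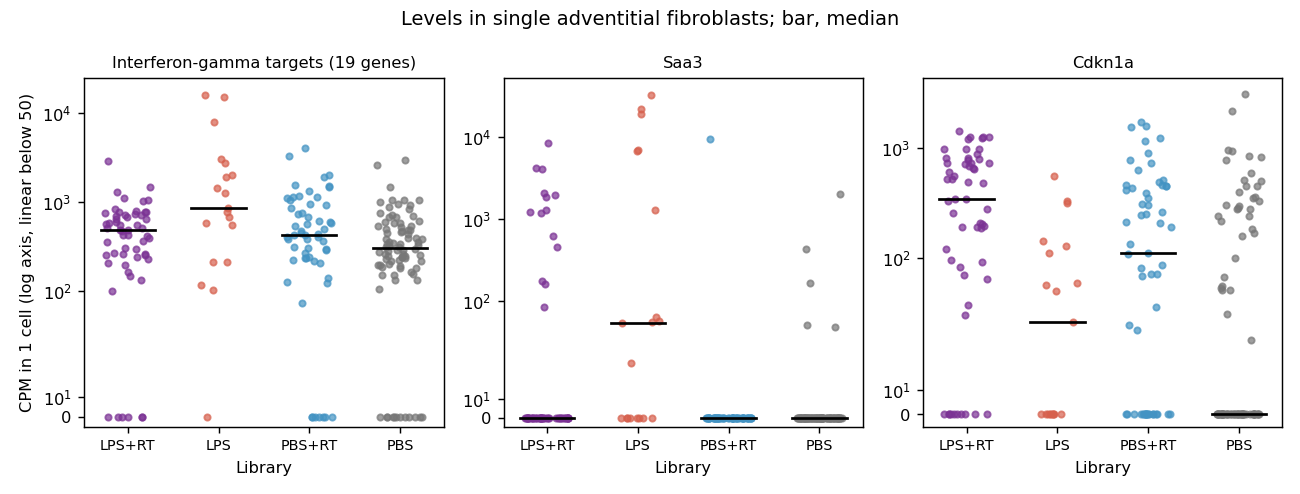
Level per cell, in CPM on an axis that is linear below 50 and logarithmic above, of the interferon-gamma list, Saa3 and Cdkn1a in every adventitial fibroblast, by library, with the median as a bar. A few LPS cells hold most of the interferon-gamma list, whose median is 866 CPM in LPS, and Cdkn1a has its highest median, 341 CPM, in LPS+RT.

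Among 9 measured genes of antigen presentation by MHC class I, 4 were higher by 2-fold or more, against 8.03% of all measured genes. The peptide transporter Tap1 was 8.83-fold higher and the immunoproteasome subunit Psmb8 was 4.27-fold higher. With each cell thinned to 2000 UMIs the log2 ratio of Psmb8 was -0.38. Thinning kept 18 LPS cells, so this value rests on few UMIs and shows no lower level in LPS. The heavy chain H2-K1 was at 621 CPM in LPS against 300.5 CPM in PBS (2.07-fold), and its partner B2m at 1122 against 809 CPM (1.39-fold). Of 13 measured NF-kB targets and feedback genes, 9 were at least 2-fold higher. Nfkb1, the p105 precursor, was at 1561 CPM in LPS against 234 CPM in PBS (6.69-fold), and the mitochondrial superoxide dismutase Sod2 at 499 against 66.1 CPM (7.54-fold). The adhesion molecules Icam1 and Vcam1 were 3.14-fold and 2.15-fold higher. Of 9 complement genes 2 were at least 2-fold higher: factor B (Cfb) was at 1110 against 205 CPM (5.41-fold), and C3 at 3041 against 1998 CPM (1.52-fold) did not reach 2-fold. Set against alveolar fibroblasts, the log2 difference of Cfb was smaller by -0.94 (-1.45 to -0.42); in PBS, Cfb was already 8.0-fold and C3 3.31-fold higher in adventitial than in alveolar fibroblasts.

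Sequence upstream of the genes highest in LPS over PBS is shown as a description. These genes were higher in the same summed UMIs, but not always in the same cells, as Saa3 and Gbp2 show above. Promoters of the 10 genes with the highest lower bound of the LPS to PBS ratio were looked up in the RefSeq table (GRCm38.p6). Those on 1 chromosome were left out and are not reported here, and promoters of 5 genes remained. The 250 bases before the start were searched on both strands for 3 motifs: GGG, any 2 bases and TTTCC (NF-kB), GAAA, any 2 bases and GAAA (interferon-stimulated response element, ISRE), and TTC, any 3 bases and GAA (gamma-activated site, GAS). These letters occur in 1.41%, 2.98% and 7.02% of all 32851 promoters in the table, where no chromosome was left out. The ISRE letters were found in 4 of the 5, Saa3, Chl1, Igtp and Gbp2, the GAS letters in 1, Igtp, and the NF-kB letters in 0; Cxcl13 had no match. The stretches below run 5′ to 3′ on the strand of the gene with the matched letters in capitals. They are chr7:46715782-46715811 (-) for Saa3, chr6:103510632-103510661 (+) for Chl1, chr3:142620594-142620623 (+) for Gbp2 and chr11:58199306-58199555 (+) for Igtp.
Saa3: gttatcttctGAAAGAGAAAttatgggtaa
Chl1: aggggtttctTTTCGGTTTCtcagtggcaa
Gbp2: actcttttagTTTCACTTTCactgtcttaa
Igtp: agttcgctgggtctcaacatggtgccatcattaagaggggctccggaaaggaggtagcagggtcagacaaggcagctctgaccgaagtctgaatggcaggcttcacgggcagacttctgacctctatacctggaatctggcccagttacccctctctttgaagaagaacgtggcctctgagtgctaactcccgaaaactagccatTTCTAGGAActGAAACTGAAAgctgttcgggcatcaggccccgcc
The match lies at -125 to -116 from the start in Saa3, and at -234 to -225 in Chl1 and -59 to -50 in Gbp2 on the other strand. Chl1, a cell adhesion molecule, had 41 UMIs in 5 cells of LPS and 0 UMIs in PBS. In Igtp, a GTPase of the same family as Iigp1, the GAS letters at -45 to -37 and the ISRE letters at -34 to -25 lie side by side. Igtp was at 11.6 CPM in LPS+RT, 198 in LPS, 18.1 in PBS+RT and 8.37 in PBS. A match of letters describes the sequence and is no measurement of binding.

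Genes of adventitial identity were mostly lower in LPS. Of 22 measured adventitial genes, 8 were at least 2-fold lower and 1, Il33, was at least 2-fold higher, against 4.03% and 8.03% of all measured genes. The median log2 ratio was -0.89, against -0.27 for the genes of the list that were measured in alveolar fibroblasts. Clec3b was 0.418 (0.377 to 0.462) of its PBS level, the sialomucin Cd34 was at 304 against 660 CPM (0.461), and Igfbp6 at 564 against 1732 CPM (0.326). The transcription factor Ebf2 had 2 UMIs in 1 cell of LPS and 152 UMIs in 27 cells of PBS, a ratio of 0.0493 (0.00592 to 0.181). Il33 was at 605 CPM in LPS against 177 in PBS (3.41-fold). The lower list level was not seen in every setting: the median cell held 14108 CPM of the list in LPS against 14207 CPM in PBS, the median log2 ratio was -0.14 with each cell thinned to 2000 UMIs, and among the 7 LPS and 13 PBS cells without RNA of another class it was 0.59. Thinning kept 18 LPS cells, so a value there can rest on few UMIs. Ackr3, at 72.1 against 202 CPM in the full set (0.357), had log2 ratios of 0.090 with thinning and 0.59 in the last setting. Ebf2 and the list median had this same 0.59 there. Ebf2 had no more than 2 UMIs in LPS, under the 3 UMIs set for a gene without a UMI. The shared value thus reflects that floor or counts near it and shows no higher level in LPS. The levels of 2 genes outside the list were also lower. Inmt was 0.224 (0.184 to 0.271) of its PBS level, lower than in alveolar fibroblasts by a log2 difference of -0.66 (-0.94 to -0.38). The alveolar cells were chosen in part by Inmt, so this difference follows in part from that choice. Igfbp5 was 0.178 (0.134 to 0.233), with a log2 difference of -1.92 (-2.48 to -1.36) to alveolar fibroblasts; it was in 11 of 19 cells of LPS and 32 of 86 of PBS, and without cells carrying RNA of another class it was higher in LPS by a log2 ratio of 2.71.

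Matrix genes differed less. Over all measured genes, 8.03% were higher and 4.03% lower in LPS by 2-fold or more, to be set beside the counts here. Of 15 measured collagens 2 were higher by 2-fold or more, the basement membrane chains Col4a1 (984 against 448 CPM, 2.20-fold) and Col4a2 (586 against 187 CPM, 3.13-fold), and the median log2 ratio was -0.11 against 0.76 in alveolar fibroblasts. Of 15 elastic fibre genes 2 were at least 2-fold lower, among them Efemp1 at 0.365, while elastin (Eln) was at 2054 against 1982 CPM (1.04-fold). Of 6 genes of fibroblast activation, 5 were at least 2-fold higher: the metalloproteinase inhibitor Timp1 was at 1464 against 480 CPM (3.05-fold) and the transcription factor Runx1 at 138 against 32.6 CPM (4.23-fold). The hyaluronan synthase Has1 was at 489 against 113 CPM (4.33-fold). Without the cells carrying RNA of another class, Col4a2, Runx1, Has1, Thbs1 and Efemp1 turned direction. Of 13 niche factors, 5 were at least 2-fold higher, including Igf1 at 674 against 303 CPM (2.22-fold). The list's median log2 ratio was 0.49 and turned to -0.16 without the richest cell of each gene, and 3 of the 19 LPS cells held 51.5% of its UMIs.

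In PBS+RT against PBS, Cdkn1a and a group of long genes were higher and the Igfbp5 and Tppp3 levels were lower. Cdkn1a (chr17:29090976-29100727, +) was at 352 CPM in PBS+RT against 169 CPM in PBS, in 38 of 57 against 35 of 86 cells, a ratio of 2.08 (1.75 to 2.48). The ubiquitin ligase Mdm2, which degrades p53, was at 78.7 against 37.7 CPM (2.09-fold, 1.44 to 3.07), and the p53-induced receptor Eda2r at 42.5 against 6.70 CPM (6.35-fold, 2.97 to 15.6), from 47 and 8 UMIs. Of 3344 measured genes 10.7% were at least 2-fold higher in PBS+RT and 3.29% at least 2-fold lower, with a median log2 ratio of 0.16. Cdkn1a and Mdm2 were the 2 of 7 measured p53 targets at least 2-fold higher, with a median log2 ratio of 0.42 over the list against 0.29 in alveolar fibroblasts. The count was 1 without the richest cell of each gene and 0 without the 5 deepest cells of each library, with equal weight per cell or with scaling by the median of ratios, and Mdm2 turned direction without the cells carrying RNA of another class. The Cdkn1a difference exceeded that of alveolar fibroblasts by 0.37 on the log2 scale, with an interval of 0.05 to 0.69.

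Long genes were higher in PBS+RT than short ones, and RNA composition differed between the same libraries. The laminin chain Lama2, whose gene spans chr10:26980036-27619758 (-), was at 2294 CPM in PBS+RT against 747 in PBS (3.07-fold, 2.84 to 3.32), in 52 of 57 against 81 of 86 cells. The exocyst subunit Exoc4 was at 630 against 107 CPM (5.88-fold, 4.86 to 7.15), and the guidance ligand Slit2 at 615 against 129 CPM (4.77-fold). The median log2 ratio was -0.54 in the 836 genes with the shortest span (204 to 12555 bp), -0.04 and 0.32 in the next 2 groups of 836 genes, and 0.74 in the 836 genes with the longest span (105153 to 2960900 bp). Ribosomal protein genes made up 54947 CPM in PBS+RT against 88164 CPM in PBS, mitochondrial genes 19887 against 27741 CPM, and the nuclear RNA Malat1 18775 against 13219 CPM. The part of these shifts in the differences of single genes was not tested. With scaling by the median of ratios in place of the total, 219 genes were at least 2-fold higher and 209 lower, in place of 358 and 110. Beside alveolar fibroblasts the log2 difference was larger by 0.75 for Lama2, 1.09 for Exoc4 and 1.53 for Slit2.

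**Figure D4:**
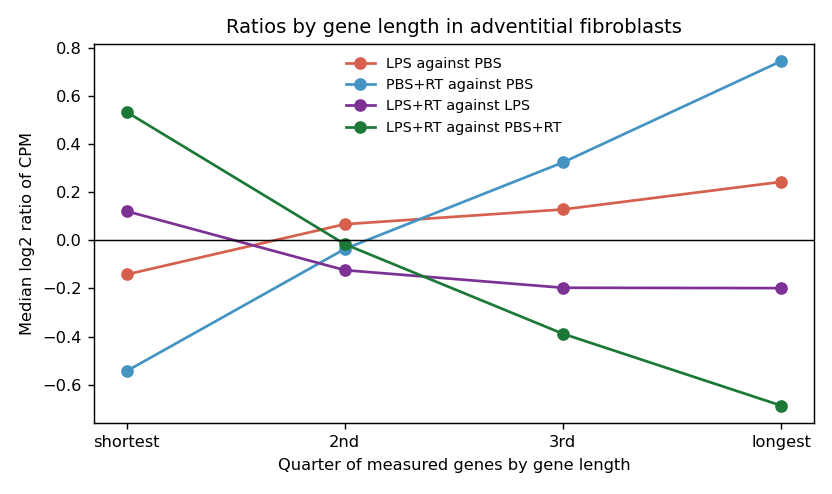
Median log2 ratio of measured genes in adventitial fibroblasts in 4 equal groups by gene length, shortest to longest, for the 4 comparisons. The PBS+RT to PBS medians run from -0.54 to 0.74 and the LPS+RT to PBS+RT medians from 0.53 to -0.69, while the LPS to PBS medians stay between -0.14 and 0.24.

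Of 22 adventitial genes none was at least 2-fold higher in PBS+RT and 3 were at least 2-fold lower, Ly6c1 (95.9 against 203 CPM), Ackr3 (62.4 against 202 CPM, 0.309) and the convertase Pcsk6 (15.4 against 87.9 CPM, 0.175). Over all measured genes, 10.7% were higher and 3.29% lower by 2-fold or more. Clec3b was at 2169 against 3199 CPM (0.678) and Cd34 at 464 against 660 CPM (0.703). The median log2 ratio of the list was -0.52, and 0.11 without the cells carrying RNA of another class, where Ly6c1 and Clec3b turned direction. Tppp3, a tubulin polymerization promoter, was at 27.1 against 205 CPM, in 16 of 57 against 47 of 86 cells, a ratio of 0.132 (0.0874 to 0.194). Igfbp5 was at 191 against 1002 CPM (0.191, 0.164 to 0.221), with 288 of its 1197 PBS UMIs in 1 cell; without the richest cell of each library it was at 141 against 761 CPM, and without the cells carrying RNA of another class it was higher in PBS+RT. Set against alveolar fibroblasts, the log2 differences of Igfbp5 and Tppp3 were lower, by -1.89 and -1.60. Elastin was at 1034 against 1982 CPM (0.522) and the microfibril protein Mfap5 at 766 against 1491 CPM (0.514), and none of 15 elastic fibre genes was past 2-fold.

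Inflammatory genes in PBS+RT differed by gene and by list, beside 10.7% of all measured genes that were at least 2-fold higher and 3.29% lower. Of 11 measured NF-kB genes 3 were at least 2-fold higher; Nfkb1 was at 961 against 234 CPM (4.11-fold), and 634 of its 1062 UMIs in PBS+RT came from 1 cell, without which it was at 387 against 199 CPM. Iigp1 was at 135 against 31.0 CPM (4.35-fold) and Gbp2 at 102 against 41.0 CPM (2.49-fold), and 3 interferon-gamma genes were measured. The whole interferon-gamma list was at 432 CPM in the median cell of PBS+RT against 305 CPM in PBS. Without the 3 richest cells of each library it summed to 562 against 373 CPM, and 13 of 57 against 6 of 86 cells reached 1000 CPM. Il6 was at 486 against 285 CPM (1.70-fold), Cxcl1 at 470 against 802 CPM (0.586) and Il33 at 109 against 177 CPM (0.617), which turned direction without the 5 deepest cells of each library. Saa3 had 214 UMIs in 1 cell of PBS+RT and no UMI in the other cells, so its ratio of 5.93 to PBS is the value of that cell and turned direction without it. Of 14 niche factors 4 were at least 2-fold higher, with the lipase inhibitor Angptl4 at 193 against 42.7 CPM (4.51-fold) and the receptor ligand Gas6 at 722 against 320 CPM (2.26-fold). Complement C7 was at 1155 against 414 CPM (2.79-fold). Timp1 was at 218 against 480 CPM (0.454), with 290 of 574 PBS UMIs in 1 cell and 176 against 238 CPM without the richest cell of each library; it was higher in PBS+RT among cells without RNA of another class. Thbs1, which encodes a matricellular protein, was at 1056 against 224 CPM (4.71-fold), and at 418 against 158 CPM without the richest cells.

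In LPS+RT against LPS, Cdkn1a and Inmt were higher and the inflammatory and interferon-gamma genes were lower. Cdkn1a was at 471 CPM in LPS+RT against 116 CPM in LPS, in 46 of 56 against 10 of 19 cells, a ratio of 4.06 (2.90 to 5.86). The median cell held 341 CPM in LPS+RT, 37.7 in LPS, 113 in PBS+RT and 0 in PBS. Inmt was at 1416 against 354 CPM, in 53 of 56 against 10 of 19 cells (4.00-fold, 3.29 to 4.89). Other alveolar genes were higher with it, Tcf21 at 142 against 59.6 CPM and Npnt at 180 against 87.8 CPM, and 11 of 56 against 1 of 19 cells were richer in Npnt and Tcf21 than in the rule genes; without those cells the log2 ratio of Inmt was 1.99 in place of 2.00. Saa3 was at 567 against 3063 CPM (0.185, 0.166 to 0.207) and Gbp2 at 70.8 against 571 CPM (0.124). Of 3161 measured genes 2.97% were higher and 7.24% lower in LPS+RT by 2-fold or more, with a median log2 ratio of -0.10. Neutrophils numbered 710 barcodes in LPS+RT and 3560 in LPS, and the libraries differ by mice as well as by irradiation, which cannot be told apart here.

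Of 11 measured interferon-gamma genes 10 were at least 2-fold lower in LPS+RT, with a median log2 ratio of -4.08 against -1.54 in alveolar fibroblasts. The count follows in part from the limit for a measured gene, which can be reached through LPS alone. Iigp1 was at 49.9 CPM in LPS+RT against 925 CPM in LPS (0.0540), and the T cell chemokine Cxcl10 at 18.6 against 577 CPM (0.0322), of which 1 LPS cell held 145 of 184 UMIs. The list summed to 468 CPM in LPS+RT against 953 CPM in LPS without the 3 richest cells of each library, and 6 genes were then at least 2-fold lower with a median log2 ratio of -1.33. The median cell held 482 CPM of the list in LPS+RT against 866 CPM in LPS. Set against alveolar fibroblasts, the log2 differences of Gbp2 and Iigp1 were lower, by -1.46 and -2.20, whereas that of Saa3 was within counting error (0.14, -0.09 to 0.37).

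Of 11 inflammatory signals 7 were at least 2-fold lower in LPS+RT, against 7.24% of all measured genes. Ccl2 had 2 UMIs in 56 cells of LPS+RT and 142 in 5 of 19 cells of LPS, and Cxcl13 had 0 and 542 UMIs. Cxcl2 was at 70.8 against 157 CPM (0.452), Cxcl1 at 828 against 1405 CPM (0.590) and Il6 at 326 against 470 CPM (0.694), a direction that turned when at least 2 rule genes were asked for. Of 6 acute-phase genes 4 were at least 2-fold lower, and Lcn2 was at 48.8 against 630 CPM, in 17 of 56 against 16 of 19 cells (0.0774, 0.0541 to 0.108). Of 13 NF-kB genes 6 were at least 2-fold lower, with Nfkb1 at 487 against 1561 CPM (0.312) and Sod2 at 69.7 against 499 CPM (0.140). Timp1 was at 526 against 1464 CPM (0.359), Runx1 at 36.0 against 138 CPM (0.261), and Cfb at 540 against 1110 CPM (0.487). Il33 was at 114 against 605 CPM (0.188).

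Of 20 adventitial genes 3 were higher in LPS+RT by 2-fold or more, Igfbp6 (1171 against 564 CPM, 2.07-fold), Ackr3 (158 against 72.1 CPM, 2.19-fold, turned to a log2 ratio of -0.055 with each cell thinned to 2000 UMIs) and Ebf2, with 107 UMIs in 21 cells of LPS+RT and 2 UMIs in 1 cell of LPS (19.8-fold, 5.35 to 166). Over all measured genes, 2.97% were higher by 2-fold or more. Clec3b was at 2421 against 1336 CPM (1.81-fold), and the median log2 ratio of the adventitial list was 0.38. Igfbp5 was at 535 against 179 CPM (3.00-fold, 2.27 to 4.02), with 182 of 461 LPS+RT UMIs in 1 cell and 324 against 141 CPM without the richest cells; it was lower in LPS+RT among cells without RNA of another class. Tppp3 was at 118 against 31.4 CPM (3.78-fold, 1.97 to 8.12), and the proteoglycan osteoglycin (Ogn) was 2.65-fold higher. Of 6 measured p53 targets Cdkn1a was at least 2-fold higher and the kinase Plk2, at 32.5 against 81.5 CPM (0.399), at least 2-fold lower, with a list median log2 ratio of 0.15. Mdm2 was at 40.7 against 31.4 CPM, from 35 and 10 UMIs, a ratio of 1.30 (0.628 to 2.94). The Cdkn1a difference was larger than that of alveolar fibroblasts by 0.94 on the log2 scale (0.40 to 1.47). Across cells, the rank correlation of Cdkn1a with the immediate early gene Fos was 0.73 in LPS+RT, 0.75 in LPS, 0.28 in PBS+RT and 0.29 in PBS over 56, 19, 57 and 86 cells that share their library and vary in depth.

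**Figure D5:**
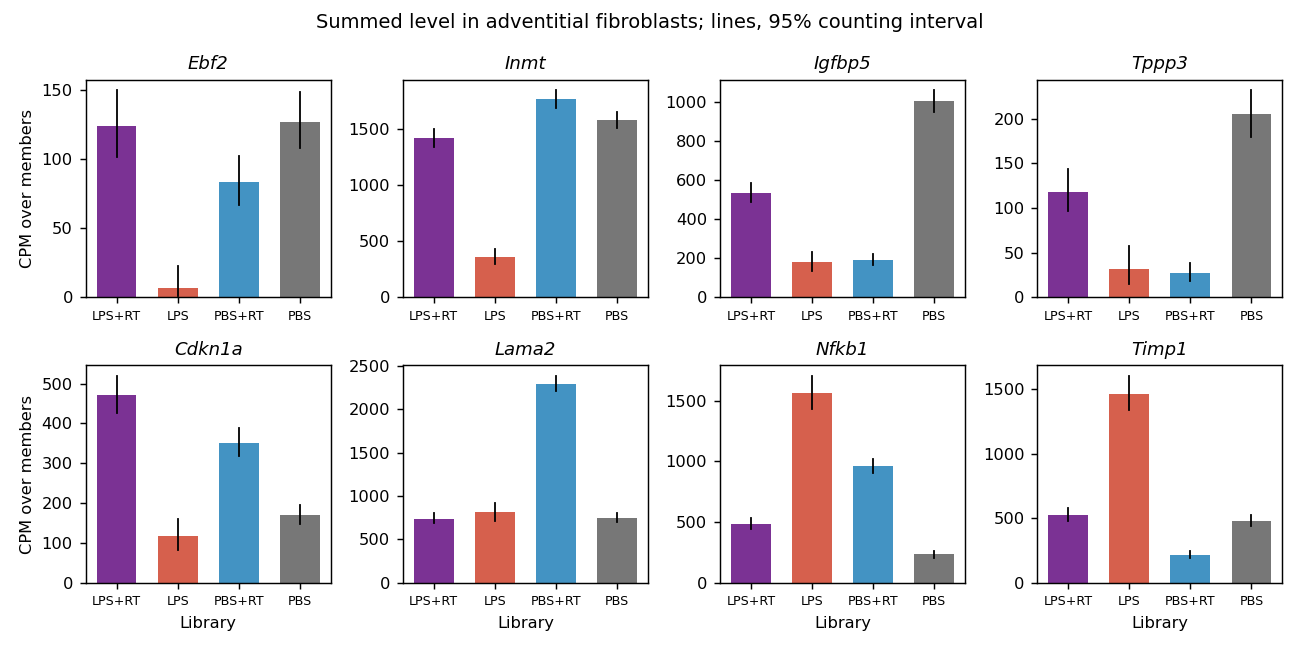
CPM of 8 genes over the adventitial fibroblasts of each library, as bars from 0 with exact 95% counting intervals. Ebf2, Inmt and Cdkn1a are lowest in LPS, Lama2 is highest in PBS+RT at 2294 CPM, and Nfkb1 and Timp1 are highest in LPS.

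In LPS+RT against PBS+RT, where both libraries were irradiated, 4 MHC class I genes and 2 acute-phase genes were higher by 2-fold or more. Of 3266 measured genes 3.18% were higher and 9.77% lower in LPS+RT by 2-fold or more, with a median log2 ratio of -0.21. With scaling by the median of ratios, 257 genes were higher and 145 lower, in place of 104 and 319. Of 7 measured MHC class I genes 4 were at least 2-fold higher, with B2m at 1223 CPM in LPS+RT against 555 CPM in PBS+RT (2.21-fold), H2-D1 at 833 against 356 CPM (2.34-fold) and H2-K1 at 435.5 against 211 CPM (2.07-fold). Of 5 acute-phase genes 2 were at least 2-fold higher, with a list median log2 ratio of 0.45. Without cells carrying RNA of another class none of the 5 was, the median was -0.32 and Saa3 turned direction. Serpina3n was at 1329 against 569 CPM (2.33-fold), Cfb at 540 against 185 CPM (2.93-fold) and Lcn2 at 48.8 against 5.43 CPM (8.99-fold), while Iigp1 was at 49.9 against 135 CPM (0.371) and Gbp2 at 70.8 against 102 CPM (0.693). Elastin was at 2446 against 1034 CPM (2.37-fold) and Ly6c1 at 257 against 95.9 CPM (2.68-fold). Lama2 was at 740 against 2294 CPM (0.322), C7 at 409 against 1155 CPM (0.354) and Runx1 at 36.0 against 110 CPM (0.326). The gene length medians ran the other way from PBS+RT against PBS, with 0.53 in the shortest and -0.69 in the longest genes. Ribosomal protein genes made up 98602 CPM in LPS+RT against 54947 CPM in PBS+RT, mitochondrial genes 28342 against 19887 CPM and Malat1 10774 against 18775 CPM, and the part of these shifts in the gene differences was not tested. The same PBS+RT library is in both comparisons. Cdkn1a was at 471 against 352 CPM (1.34-fold), and none of 9 p53 targets was past 2-fold.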

How the data were processed

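The deposited files hold raw counts: whole-number UMIs per gene and barcode, 1 filtered matrix per library; per the file headers, the authors ran Cell Ranger 7.0.1, and the submitters' processing notes name mm10, R 4.2.2 and Seurat 4.3.0. All 4 matrices list the same 32285 genes and held 10996 (LPS+RT), 9572 (LPS), 6708 (PBS+RT) and 10083 (PBS) barcodes, of which 9917, 9139, 6345 and 9039 passed the filters. From the counts, UMIs were summed over the adventitial fibroblasts of a library and divided by their total; ratios have exact conditional binomial intervals and shares Clopper-Pearson intervals. Steps were tested on simulated data. Python 3.11.15, numpy 2.4.6, scipy 1.17.1 and pandas 2.3.3 were used. Positions and gene lengths are from GENCODE M21 (GRCm38). The cells, the 37 gene lists (462 genes) and the comparisons were chosen with earlier results of these data known. Genes named are the 10 per direction with the most extreme interval bound, with at least 30 UMIs and a level that is not below 1/5 of that in another class, the 4 highest of each list, its members past 2-fold, and the markers; other genes named were chosen after their values were seen. Alternatives to the thresholds, filters, scaling and weights are given at the end. Some genes are not reported here.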

Additional observations from a re-analysis of the deposited data

Results flagged for a closer look

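For 13 flagged genes the adventitial fibroblasts of LPS+RT against LPS differed at least 2-fold one way and those of PBS+RT against PBS at least 2-fold the other way. They are not all the genes with this pattern. Among those not flagged, Gbp6 had log2 ratios of -4.40 in the LPS pair and 1.43 in the PBS pair. For Ifit3 these were -1.32 and 1.63, and for Tmem100 1.03 and -2.31. With 1 library per group the difference was not tested. Values are the log2 ratio in the LPS pair, the log2 ratio in the PBS pair, and the first minus the second. The genes lower with irradiation in the LPS pair and higher in the PBS pair included Iigp1 (-4.21, 2.12 and -6.33) and Gbp2 (-3.01, 1.32 and -4.33), both induced by interferon-gamma. Nfkb1 (-1.68, 2.04 and -3.72) and Runx1 (-1.94, 1.76 and -3.70) encode transcription factors and Col4a2 (-1.29, 1.34 and -2.62) a basement membrane chain. Without the richest cell of each library Nfkb1 was at 387 CPM in PBS+RT against 199 CPM in PBS, under 2-fold. Ifi205 (-1.25, 2.56 and -3.81), Mpp7 (-2.28, 1.90 and -4.18), Homer1 (-1.75, 1.88 and -3.63), Gm34455 (-1.15, 2.30 and -3.44) and Aff1 (-1.33, 1.94 and -3.27) followed the same pattern. Among the 13, the reverse was seen for Tppp3 (1.92, -2.92 and 4.84), Igfbp5 (1.58, -2.39 and 3.97) and Ackr3 (1.13, -1.69 and 2.82). Without cells carrying RNA of another class Igfbp5 turned in both pairs, with log2 ratios of -0.21 and 2.92, and with each cell thinned to 2000 UMIs Ackr3 turned to -0.055 in the LPS pair.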

How the results depend on the processing

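Counts were 263 genes higher and 132 lower in LPS/PBS, 358 and 110 in PBS+RT/PBS, 94 and 229 in LPS+RT/LPS and 104 and 319 in LPS+RT/PBS+RT before any alternative, where a stroke joins the library of interest to the one it is set against. Median log2 ratios of lists and log2 ratios of single genes are given below only where they moved by more than their limit or turned direction, and the cause was not tested. In all, 76 of 544 list values moved and 8 turned direction, and 655 of 2406 gene values moved and 48 turned. Of 32 share values 6 moved, and of 112 counts of genes 44 moved. When UMIs of at least 2 of the 3 rule genes were asked for, list medians were -2.13 for inflammatory signals and -1.19 for acute-phase genes in LPS+RT/LPS. The genes that turned direction were Il6 -0.12 in LPS/PBS, Saa3 -3.63 in PBS+RT/PBS and Il6 0.22 in LPS+RT/LPS. With at least 3 UMIs of the rule genes, direction turned for Saa3 -3.64 in PBS+RT/PBS. With up to 1 UMI of the exclusion genes allowed (chosen after seeing the data), the number of genes at least 2-fold lower was 62 in PBS+RT/PBS. List medians were 2.10 for inflammatory signals and 1.82 for acute-phase genes in LPS/PBS, -0.19 for adventitial genes in PBS+RT/PBS and -2.79 for interferon-gamma genes, -1.18 for acute-phase genes and 0.090 for complement genes in LPS+RT/LPS. Direction turned for Ccl2 0.81 in LPS+RT/PBS+RT. With each cell given equal weight, the number of genes at least 2-fold higher was 168 in LPS+RT/LPS. The number lower was 228 in LPS/PBS. List medians were 2.07 for inflammatory signals and 0.43 for p53 targets in LPS/PBS and -2.02 for inflammatory signals in LPS+RT/LPS. Direction turned for Dcn 0.0058 in PBS+RT/PBS. With every barcode thinned to 2000 UMIs before the rule, the share ratio was 0.632 in PBS+RT/PBS. With a limit of 100 CPM for a measured gene, the number of genes at least 2-fold higher was 137 in LPS/PBS, 203 in PBS+RT/PBS, 37 in LPS+RT/LPS and 54 in LPS+RT/PBS+RT. Genes lower by 2-fold or more numbered 62 in LPS/PBS, 57 in PBS+RT/PBS, 113 in LPS+RT/LPS and 171 in LPS+RT/PBS+RT. With a limit of 20 CPM, the number of genes at least 2-fold higher was 540 in LPS/PBS, 600 in PBS+RT/PBS, 350 in LPS+RT/LPS and 230 in LPS+RT/PBS+RT. Genes lower by 2-fold or more numbered 460 in LPS/PBS, 284 in PBS+RT/PBS, 573 in LPS+RT/LPS and 623 in LPS+RT/PBS+RT. With scaling by the median of ratios, the number of genes at least 2-fold higher was 219 in PBS+RT/PBS and 257 in LPS+RT/PBS+RT. The number lower was 209 in PBS+RT/PBS and 145 in LPS+RT/PBS+RT. List medians were -0.69 for adventitial genes in PBS+RT/PBS and 0.26 for adventitial genes in LPS+RT/PBS+RT. With each adventitial fibroblast thinned to 2000 UMIs, the number of genes at least 2-fold higher was 604 in LPS/PBS, 547 in PBS+RT/PBS, 410 in LPS+RT/LPS and 350 in LPS+RT/PBS+RT. The number lower was 407 in LPS/PBS, 234 in PBS+RT/PBS, 502 in LPS+RT/LPS and 627 in LPS+RT/PBS+RT. List medians were -0.14 for adventitial genes, 1.79 for inflammatory signals and 0.89 for p53 targets in LPS/PBS and -2.73 for interferon-gamma genes, -2.04 for inflammatory signals and -0.29 for p53 targets in LPS+RT/LPS. The genes that turned direction were Psmb8 -0.38, Pcsk6 0.090, Ackr3 0.090 and Nlgn1 0.62 in LPS/PBS and Ackr3 -0.055 in LPS+RT/LPS. Thinning kept 18 LPS cells of 2000 UMIs, so these turns rest on few or no UMIs in LPS and show no change of direction. As a share of the collagen gate, the share ratio was 0.388 in LPS/PBS. Without the cells richer in Npnt and Tcf21 (chosen after seeing the data), list medians were -1.91 for inflammatory signals in LPS+RT/LPS and 1.14 for inflammatory signals in LPS+RT/PBS+RT. Direction turned for Saa3 -3.56 in PBS+RT/PBS. Without cells with RNA of another class, the share ratio was 0.533 in LPS/PBS, 1.86 in PBS+RT/PBS, 1.32 in LPS+RT/LPS and 0.376 in LPS+RT/PBS+RT. The number of genes at least 2-fold higher was 730 in LPS/PBS, 580 in LPS+RT/LPS and 411 in LPS+RT/PBS+RT. The number lower was 510 in LPS/PBS, 350 in PBS+RT/PBS, 656 in LPS+RT/LPS and 523 in LPS+RT/PBS+RT. List medians were 0.59 for adventitial genes and 1.2 for inflammatory signals in LPS/PBS, 0.11 for adventitial genes in PBS+RT/PBS, -0.56 for inflammatory signals, -2.30 for acute-phase genes, 0.20 for complement genes and 0.83 for p53 targets in LPS+RT/LPS and 0.35 for adventitial genes, -0.32 for acute-phase genes and -0.72 for p53 targets in LPS+RT/PBS+RT. The genes that turned direction were Runx1 -1.32, Has1 -3.16, Col4a2 -0.73, Ackr3 0.59, Efemp1 1.01, Thbs1 -3.71, Aqp1 0.59, Ebf2 0.59, Igfbp5 2.71, Tppp3 0.27, Serpinf1 0.042 and Dcn 0.29 in LPS/PBS, Clec3b 0.11, Ly6c1 1.17, Timp1 1.97, Igfbp5 2.92, Il33 1.60, Mdm2 -0.35, Serpinf1 0.063 and Dcn 0.53 in PBS+RT/PBS, Igfbp5 -0.21, Zbtb16 -0.80, Il6 0.29 and Pi16 -1.64 in LPS+RT/LPS and Mt2 -0.33, Tppp3 -0.91, Saa3 -6.07, Igfbp5 -0.43, Mpp7 0.087, Lamc3 0.93 and Pi16 -2.02 in LPS+RT/PBS+RT. The value of 0.59 shared by Ackr3, Aqp1, Ebf2 and the adventitial list in LPS/PBS rests on few or no UMIs and shows no higher level in LPS. Without the 3 cells richest in each list (chosen after seeing the data), list medians were 2.19 for interferon-gamma genes and 1.24 for inflammatory signals in LPS/PBS and -1.33 for interferon-gamma genes and -1.27 for acute-phase genes in LPS+RT/LPS. Without the 5 deepest cells of each library, the number of genes at least 2-fold higher was 145 in LPS+RT/LPS. The number lower was 211 in LPS/PBS. List medians were 3.07 for interferon-gamma genes and 1.35 for inflammatory signals in LPS/PBS, -0.20 for adventitial genes in PBS+RT/PBS, -1.21 for acute-phase genes in LPS+RT/LPS and 0.037 for activation genes in LPS+RT/PBS+RT. The genes that turned direction were Il33 0.22, Pi16 0.036 and Dcn 0.0092 in PBS+RT/PBS and Thbs1 0.22 in LPS+RT/PBS+RT. Without the richest cell of each gene (chosen after seeing the data), the number of genes at least 2-fold higher was 102 in LPS/PBS and 164 in LPS+RT/LPS. The number lower was 218 in LPS/PBS and 87 in LPS+RT/LPS. List medians were 1.61 for inflammatory signals, 1.73 for acute-phase genes and -0.16 for niche factors in LPS/PBS and -1.25 for acute-phase genes and 0.086 for complement genes in LPS+RT/LPS. Direction turned for Saa3 -2.11 in PBS+RT/PBS. The LPS library holds 19 adventitial fibroblasts and 318947 UMIs, so a gene with no UMI there may lie below 9.41 CPM, and values in LPS rest on the fewest cells. No paired analysis was possible because there is 1 library per group, and no library could be left out in turn.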
